A study of Mus musculus with 18 samples.

Results

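The 2805 regions described here are distal Foxa2 binding sites that were called in wild-type mouse liver and not in Zmpste24 mutant liver. They were chosen by their position: each lay on chromosomes 1 to 19, shared no base with any site of the mutant list, and had its midpoint more than 5 kb from the nearest start of a protein-coding gene. They made up 56.6% of the 4960 sites listed for the wild type, and the mutant list held 8177 sites. Foxa2 was profiled by ChIP-Seq (chromatin immunoprecipitation followed by sequencing) in whole livers of male C57BL/6 mice aged 12 weeks, from 3 wild-type littermates and 3 Zmpste24 KO mice, which lack the gene in every tissue. Lamin B1 and the heterochromatin mark H3K9me3 were profiled in livers of other C57BL/6 males, young (3 months) and old (21 months), with 2 replicates at each age. The replicates of each group were merged before sites or domains were called, so each list is a single set of positions with no replicate spread, no signal heights and no read depths. Every interval and p-value below therefore covers counting error over listed sites only, and sites are not replicates of a genotype.

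Foxa2 is a winged-helix transcription factor of the forkhead family that can bind its sequence in compacted chromatin and, with its relative Foxa1, is needed for liver development and, in the adult, for bile acid and lipid metabolism. Zmpste24 is the protease that removes the farnesylated tail of prelamin A, and mice without it accumulate the precursor, have misshapen nuclei and age prematurely. The nuclear lamina, which lamin B1 lines together with lamin A, holds large domains of mostly silent chromatin at the nuclear edge, many of them marked by H3K9me3.

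The forkhead core searched for was TGTTTAC on either strand, and 372 of the 2805 wild-type-only distal sites held it in their central 500 bp. The sequences below are from the mouse reference GRCm38.p6, on the plus strand, with 40 bases on each side of the core that lies nearest to the midpoint, and with every copy of the core in capitals (GTAAACA is the core on the minus strand). The first set shows the sites with the most copies, 3 for the site in an intron of Spred2, an inhibitor of Ras signalling, and 2 each for the sites in introns of Pcmtd1 and of Mapkap1, a subunit of an mTOR complex. These 2 are the first in genome order of 21 sites with 2 copies. Copies were counted in the central 500 bp, so not all copies of the Spred2 and Mapkap1 sites fall in the 87 bases printed.
Spred2 site, chr11:19991106-19991192: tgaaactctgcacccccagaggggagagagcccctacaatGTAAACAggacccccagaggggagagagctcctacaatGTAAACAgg
Pcmtd1 site, chr1:7093849-7093935: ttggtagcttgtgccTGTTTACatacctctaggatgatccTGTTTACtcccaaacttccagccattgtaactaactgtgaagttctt
Mapkap1 site, chr2:34544883-34544969: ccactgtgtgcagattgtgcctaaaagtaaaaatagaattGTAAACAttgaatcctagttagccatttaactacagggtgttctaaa
In the Spred2 site the core recurred together with the bases around it, and in the Pcmtd1 site 2 copies stood on the same strand. All 3 sites lay within protein-coding genes, at 66.8 kb, 5.09 kb and 138 kb from the start site.

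A second set shows sites that lay in both a lamin B1 and an H3K9me3 domain in young liver and in neither in old liver, a state found at 32 of the 2805 sites. The nearest start sites were those of Lrrc4c, a synaptic adhesion protein, at 324 kb, of Arhgap18, a GTPase-activating protein, at 168 kb, and of Rnf217, a RING finger protein, at 40.7 kb.
Lrrc4c site, chr2:95994012-95994098: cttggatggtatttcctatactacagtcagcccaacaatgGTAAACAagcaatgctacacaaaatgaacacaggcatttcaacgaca
Arhgap18 site, chr10:26585490-26585576: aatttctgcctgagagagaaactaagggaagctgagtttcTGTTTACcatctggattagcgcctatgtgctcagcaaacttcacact
Rnf217 site, chr10:31568369-31568455: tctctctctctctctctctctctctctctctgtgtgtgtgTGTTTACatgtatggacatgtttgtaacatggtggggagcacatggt
In the Rnf217 site the core adjoined a long run of CT and GT repeats. These 3 sites were picked from the 32 by copies of the core, most first, and each held 1 copy.

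The third set shows sites nearest to genes of liver metabolism. They lay near Cd36, a fatty acid transporter, Slc10a1, the bile acid uptake carrier of hepatocytes, Ppara, the nuclear receptor of fatty acid oxidation, Nr5a2, a nuclear receptor that drives bile acid synthesis genes, Slc2a2, the hepatic glucose transporter, and Fbp1, an enzyme of gluconeogenesis.
Cd36 site, chr5:17881481-17881567: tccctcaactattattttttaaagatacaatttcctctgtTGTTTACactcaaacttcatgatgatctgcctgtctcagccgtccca
Slc10a1 site, chr12:80976190-80976276: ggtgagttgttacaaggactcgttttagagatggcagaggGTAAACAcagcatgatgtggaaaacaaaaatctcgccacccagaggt
Ppara site, chr15:85747433-85747519: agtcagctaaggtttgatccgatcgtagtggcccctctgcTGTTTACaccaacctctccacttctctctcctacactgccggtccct
Nr5a2 site, chr1:136946923-136947009: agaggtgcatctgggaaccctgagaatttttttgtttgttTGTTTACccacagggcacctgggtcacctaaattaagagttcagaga
Slc2a2 site, chr3:28681888-28681974: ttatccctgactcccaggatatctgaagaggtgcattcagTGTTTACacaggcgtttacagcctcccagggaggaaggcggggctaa
Fbp1 site, chr13:62907965-62908051: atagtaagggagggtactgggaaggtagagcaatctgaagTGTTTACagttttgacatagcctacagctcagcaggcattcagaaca
Only sites with the core were printed, so its presence here is by selection. Each held 1 copy, and their midpoints were between 7.38 kb (Cd36) and 19.97 kb (Fbp1) from the start site. The other wild-type-only sites nearest to Cd36, Ppara, Nr5a2, Slc2a2 and Fbp1 held no copy in their central 500 bp.

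The selection itself fixed the overlap with the mutant list and the distance, so both are given as a description only. Of the 4912 wild-type sites on chromosomes 1 to 19, 3573 (72.7%) did not touch a mutant site, and of the 3802 that were distal, 2805 (73.8%) did not. The remaining 768 wild-type-only sites lay within 5 kb of a start site. The share of distal wild-type sites without mutant overlap ranged from 64.0% on chromosome 14 to 79.2% on chromosome 3. Just inside the 5 kb limit lay the sites near Dbr1, Dusp11 and Cd4, at 5008, 5071 and 5073 bp. Just outside it lay those near Fam69a, Tspan3 and Riox2, at 4978, 4986 and 4989 bp.

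The sites were compared with 2 other classes under the same distance rule: 997 shared distal sites of the wild-type list that overlapped a mutant site, and 5911 mutant-only distal sites. The median gap from a wild-type-only site to a mutant site was 70.2 kb (quartiles 22.2 and 170 kb). Within 1 kb of a mutant site lay 55 sites (1.96%), within 10 kb 379 (13.5%) and within 50 kb 1157 (41.2%). From mutant-only distal sites to the wild-type list, which holds fewer sites, the median gap was 169 kb. The smallest gaps were 5 bp at Mat1a, which encodes the liver methionine adenosyltransferase, 45 bp near Cdh19 and 72 bp at Ccdc7a. On the other side of the threshold, the shared sites with the smallest overlap touched a mutant site by 12 bp at Foxn3, 16 bp at Sh3tc2 and 38 bp at Pitpnm2. The forkhead core was found in 12.7% of the 1531 sites with a gap of 50 to 500 kb and in 14.0% of the 935 sites with a gap of 5 to 50 kb. At gaps under 500 bp it was in 12.0% of 25 sites, and at 500 to 1000 bp in 13.3% of 30. At 1 to 5 kb it was in 12.6% of 167 sites, and at 500 kb or more in 15.4% of 117.

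Wild-type-only distal sites held the forkhead core less often than shared sites and more often than their own surroundings. The core was present in the central 500 bp of 13.3% of them (372 of 2805, Wilson 95% interval 12.1 to 14.6%), against 34.2% of the shared distal sites (341 of 997, 31.3 to 37.2%). The difference was -20.9 percentage points (95% interval -24.2 to -17.8), with an adjusted p of 8.1e-43 by a two-sided Fisher's exact test with Benjamini-Hochberg adjustment over 10 sequence words. A 500 bp window 5 kb downstream of each wild-type-only site held the core in 7.74% of cases (217 of 2805), and the excess at the sites had an adjusted p of 2.4e-10 by the two-sided exact McNemar test. Mutant-only distal sites held it in 11.6% (688 of 5911), and the difference of 1.62 percentage points (95% interval 0.152 to 3.15) did not pass after adjustment (adjusted p = 0.081, Fisher's exact test). This last comparison depended on the window and on the sites kept: over whole called sites the shares were 21.8% and 19.1% (exact test, adjusted p = 0.015), in the central 200 bp they were 6.84% and 5.36% (adjusted p = 0.036), and with 1 site per 1 Mb of each class they were 11.4% and 11.4%.

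The core was concentrated at the midpoints. Within 100 bp of the midpoint, wild-type-only sites held 0.367 matches per kb, 2.43 times the 0.151 matches per kb found between 1.5 and 2 kb away. The same ratio was 7.08 at shared sites (1.14 against 0.161 matches per kb) and 1.83 at mutant-only sites (0.291 against 0.159). The densities far from the midpoint were thus close to each other in all 3 classes, and the classes stood apart at the centre. The lists hold no signal heights, so the midpoint of the called site served as its centre. Median widths were 1029 bp for wild-type-only, 681 bp for shared and 934 bp for mutant-only sites. The part of width in these ratios was not tested. Copies beyond the first were few: 350 wild-type-only sites held 1 copy, 21 held 2 and 1 held 3 or more.

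**Figure D1:**
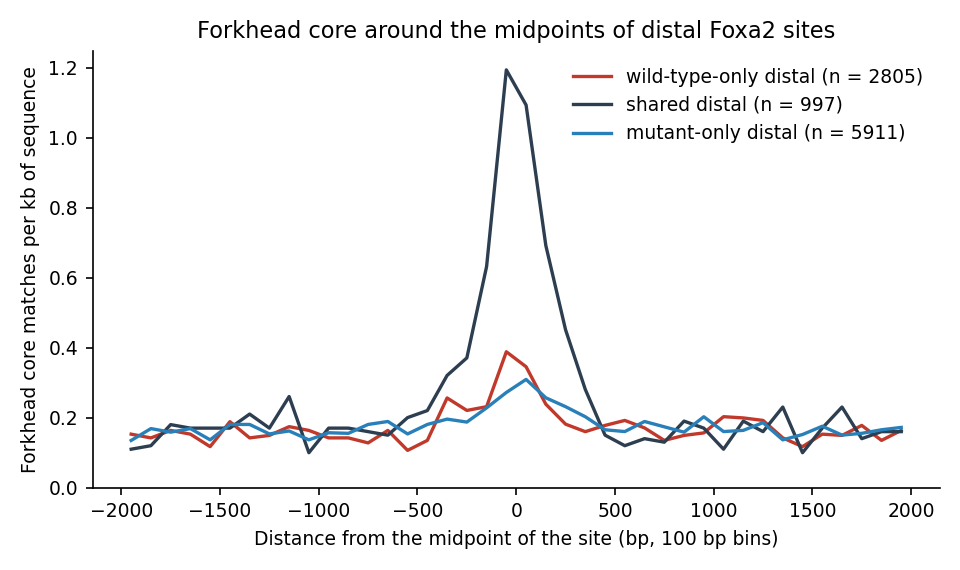
Matches to the forkhead core per kb of sequence (vertical axis) in 100 bp bins by distance from the site midpoint in bp (horizontal axis), for 2805 wild-type-only, 997 shared and 5911 mutant-only distal sites; lines are totals over sites, with no replicates. All 3 lines lie close together far from the midpoint and rise at it, to 0.389 matches per kb in the highest bin for wild-type-only sites and 1.19 for shared sites.

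The words of other liver factors, and the ETS word, which is not counted among the liver words here, were also rarer in wild-type-only than in shared sites. The word of HNF4 (CAAAGTCCA or CAAAGGTCA), a nuclear receptor of hepatocytes, was in 2.50% of the wild-type-only and 6.52% of the shared sites (exact test, adjusted p = 1.8e-07). C/EBP (TTGCNNAA), a family of leucine zipper factors of hepatocytes and adipocytes, was in 22.1% against 29.4% (exact test, adjusted p = 1.9e-05). HNF1 (GTTAATNAT), a homeodomain factor, was in 1.93% against 3.51% (exact test, adjusted p = 0.014), and Onecut (ATCAATA), another homeodomain family, in 7.06% against 9.43% (adjusted p = 0.031). ETS (CCGGAAG) was in 1.89% against 3.61% (exact test, adjusted p = 0.0080). All 5 were lower in the wild-type-only sites, and each p is from Fisher's exact test, adjusted over the 10 words on both strands; words may overlap one another.

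GATA, Sox, AP-1 and Sp1 words did not pass in that comparison. For AP-1 (TGANTCA), the word of the Fos and Jun factors, the shares were 15.7% and 15.4%, a difference of 0.276 percentage points with a 95% interval of -2.43 to 2.80. Taking the 5 liver words together (forkhead, HNF4, HNF1, C/EBP and Onecut), 60.9% of wild-type-only sites held none, against 39.8% of shared and 60.0% of mutant-only sites. Sites with 2 or more kinds were few: 172 held 2 and 23 held 3.

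Against their own flanks, only 3 of the 10 words passed in the wild-type-only sites: forkhead, HNF4 (2.50% against 1.25%, adjusted p = 0.0033) and the Sp1 word (GGGCGG), at 7.63% against 5.45% (adjusted p = 0.0033, exact McNemar test). C/EBP, at 22.1% in sites and 21.2% in flanks (exact test, adjusted p = 0.74), and Onecut, at 7.06% and 6.99%, did not pass. Against mutant-only sites, the Sp1 word was higher in wild-type-only sites (7.63% against 4.87%, adjusted p = 4.7e-06, Fisher's exact test) and the word AGATAA, bound by factors of the GATA family, was lower (27.9% against 32.1%, adjusted p = 0.00028). Base composition moved with both: the median G and C content of the central 500 bp was 44.8% in wild-type-only, 45.6% in shared and 41.8% in mutant-only sites. Its part in the 2 differences was not tested. The Sox word (CCATTGT or CCTTTGT), of a family of HMG-box factors, was in 17.5% of wild-type-only and 17.2% of mutant-only sites, a difference of 0.369 percentage points (95% interval -1.31 to 2.10).

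**Figure D2:**
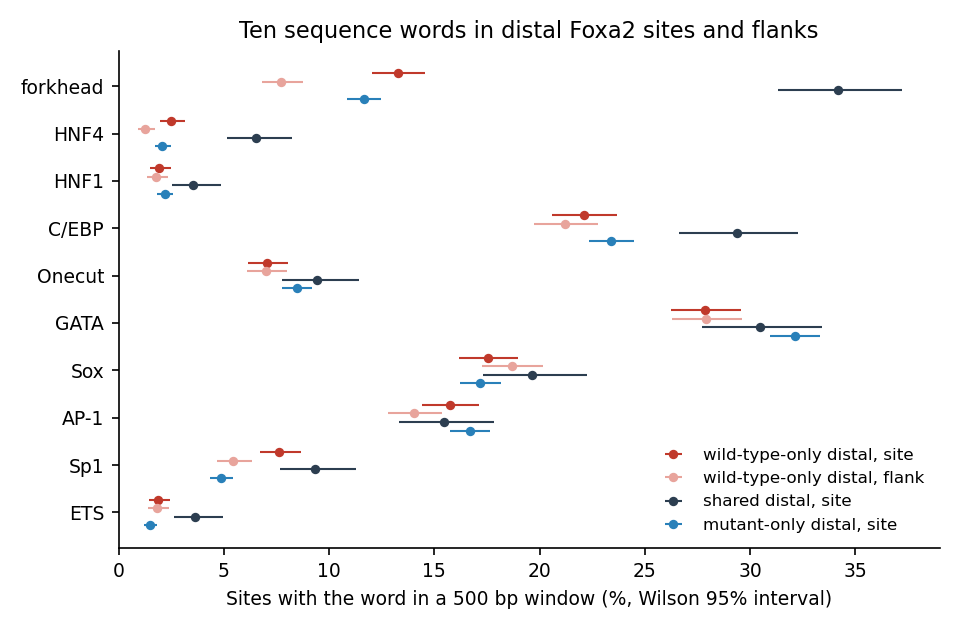
Share of sites (%, horizontal axis) with each of 10 sequence words in a 500 bp window, for wild-type-only distal sites, their downstream flanks, shared distal and mutant-only distal sites; points are shares and bars Wilson 95% intervals. The forkhead word separates shared sites (34.2%) from wild-type-only (13.3%) and mutant-only sites (11.6%), and wild-type-only sites lie above their flanks (7.74%).

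The deposited order of the wild-type list, whose meaning is not given in the sources used here, went with both the selection and the sequence. In the first 496 lines 53 of 361 distal sites (14.7%) were wild-type-only, and in lines 4465 to 4960 the count was 361 of 389 (92.8%). The median line of wild-type-only sites was 3049, and that of shared distal sites 959. Among wild-type-only sites the forkhead core was in 18.2% of the 428 that stood in the first 1488 lines (Wilson 95% interval 14.9 to 22.2%) and in 12.4% of the 2377 in the later lines (11.1 to 13.8%). The first wild-type-only lines were 116, 119 and 180, of sites nearest to Vmn1r2, Pdgfc and Fndc3b; these 3 were named after their values were seen. Within the first 1488 lines alone, a restriction chosen after seeing the data, the core was in 18.2% of wild-type-only and 34.8% of shared sites, so the difference was kept at -16.5 percentage points (adjusted p = 2.4e-08, Fisher's exact test).

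**Figure D3:**
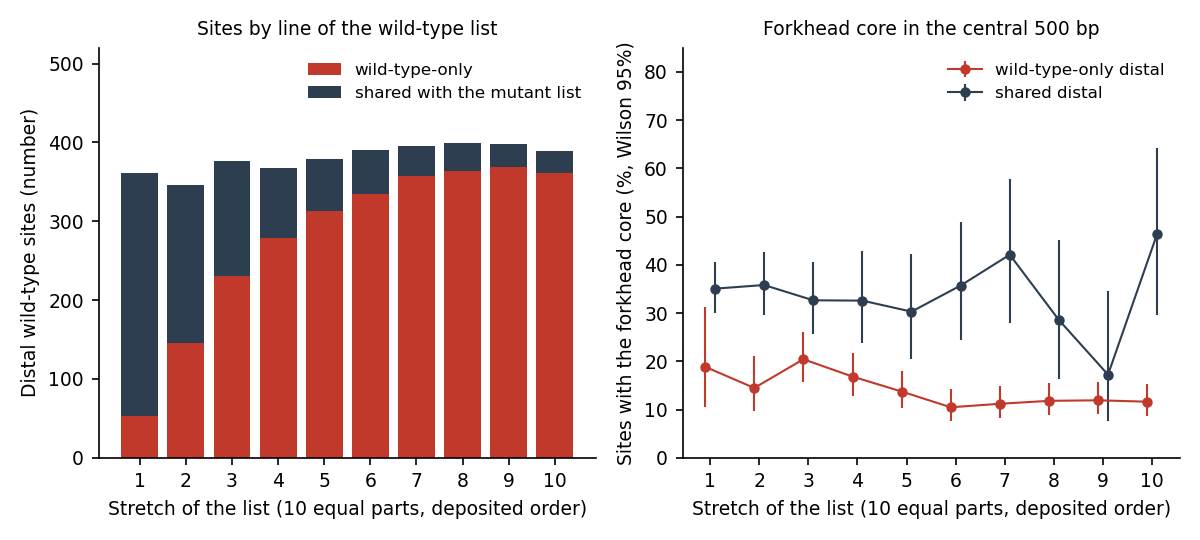
Left, number of distal wild-type sites in each of 10 equal stretches of the list in deposited order, split into wild-type-only and shared; right, share of each class (%) with the forkhead core in the central 500 bp, with Wilson 95% intervals. Wild-type-only sites number 53 in the first stretch and 361 in the last, and their forkhead share is 18.9% in the first and 11.6% in the last.

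The sites were wider than the shared ones, with a median of 1029 bp (quartiles 751 and 1239 bp) against 681 bp, and 934 bp for mutant-only sites. The widest was 17459 bp, chr14:41103740-41121198 at Mat1a, and the next 7474 bp, chr14:41156618-41164091 near Mbl1, a mannose-binding lectin secreted by the liver. Neither held the forkhead core in its central 500 bp, and neither lay in a lamin B1 or H3K9me3 domain at either age. The soft-masked share, which marks repeats in the reference, had a median of 15.6% in wild-type-only, 12.0% in shared and 18.6% in mutant-only sites. Runs of 10 or more CA or TG units were in 4.71%, 4.31% and 4.86% of the 3 classes.

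Lamin B1 domains of old liver held most of the wild-type-only distal sites. The midpoint of 57.7% of them (1619 of 2805, Wilson 95% interval 55.9 to 59.5%) lay in an old lamin B1 domain, and of 30.6% (857 of 2805) in a young one. These domains covered 38.8% and 19.5% of the assembled bases of chromosomes 1 to 19. Shared sites were there more often, at 67.4% in old and 35.1% in young domains, differences of -9.68 (exact test, adjusted p = 1.4e-07) and -4.55 percentage points (adjusted p = 0.012). Mutant-only sites were there less often, at 42.5% and 24.2%, differences of 15.2 (adjusted p = 1.7e-39) and 6.31 percentage points (adjusted p = 2.2e-09); all are two-sided Fisher's exact tests adjusted over 8 comparisons. Wild-type-only sites thus lay between the other classes at both ages.

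Base composition and list order moved with these shares. Wild-type-only sites in old lamin B1 domains had a median G and C content of 47.2%, and those outside had 41.6%. Among sites with 40 to 50% G and C, a restriction chosen after seeing the data, the old lamin B1 shares were 59.9% for wild-type-only and 53.6% for mutant-only sites, a difference of 6.33 percentage points (adjusted p = 0.00010, Fisher's exact test), and the young shares were 29.7% and 27.7% (adjusted p = 0.20). Against shared sites in that range, the old lamin B1 difference was -7.09 (exact test, adjusted p = 0.0032) and the young one -4.05 percentage points (adjusted p = 0.10). Within the first 1488 lines of the list the difference from shared sites was -2.57 for old (exact test, adjusted p = 0.63) and 1.02 percentage points for young lamin B1 (adjusted p = 1.0).

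Between the ages, 924 wild-type-only sites (32.9%) lay in a lamin B1 domain in old liver only, 162 (5.78%) in young only, 695 (24.8%) at both ages and 1024 (36.5%) at neither. The old list covered more of the genome than the young one, and more sites lay in old-only than in young-only domains in each of the 3 classes: 378 against 56 of the shared and 1496 against 418 of the mutant-only sites. Per the study, pooled read numbers differed between the ages, higher in young liver for lamin B1 and in old liver for H3K9me3. The part of read number in the domain states was not tested. The forkhead core was in 14.1% of the wild-type-only sites inside old lamin B1 domains (12.5 to 15.9%) and in 12.1% of those outside (10.4 to 14.1%), and these intervals overlapped.

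H3K9me3 domains held about as large a share of the wild-type-only sites as of the genome. The deposited lists held 2784 regions for young and 2496 for old liver. These numbers differ from those given in the publication and the filter between them is not stated, so the values below hold for the deposited lists only. The mark covered 23.0% of the sites in young and 26.8% in old liver, and 24.0% and 25.7% of the assembled bases. Both shares were above those of shared sites, 17.6% in young (difference 5.48 percentage points, adjusted p = 0.00045) and 18.2% in old liver (difference 8.65, adjusted p = 8.1e-08, Fisher's exact test). Within the first 1488 lines of the list neither passed, with differences of 0.419 (exact test, adjusted p = 1.0) and 4.63 percentage points (adjusted p = 0.16). Among mutant-only sites the shares were 24.3% at both ages. The young difference of -1.25 percentage points (95% interval -3.13 to 0.677) did not pass (exact test, adjusted p = 0.21), and the old difference of 2.50 did (adjusted p = 0.015). That call was lost with 1 site per 1 Mb and without dense runs of sites, and it turned to -1.49 percentage points at 40 to 50% G and C.

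Many sites lay in an H3K9me3 domain at 1 age only. Of the wild-type-only sites, 326 lay in a domain at both ages, 320 in young only, 426 in old only and 1733 at neither age. Both marks together covered 211 sites (7.52%) in young and 582 (20.7%) in old liver, and 690 sites (24.6%) lay in neither mark at either age. The state shown by the second set of sequences, both marks in young and neither in old, was found at 32 sites (1.14%), and its converse at 246 (8.77%). The classes were not tested against each other for these states. Of the mutant-only sites, 811 lay in an H3K9me3 domain in young only and 813 in old only, and 81 and 87 of the shared sites did. In neither mark at either age lay 34.3% of mutant-only and 21.7% of shared sites. Both marks together covered 5.74% of mutant-only sites in young and 17.4% in old liver, and 8.63% and 15.6% of shared sites. Both marks in young and neither in old were found at 1.52% of mutant-only and 0.702% of shared sites, and the converse at 7.53% and 4.51%.

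**Figure D4:**
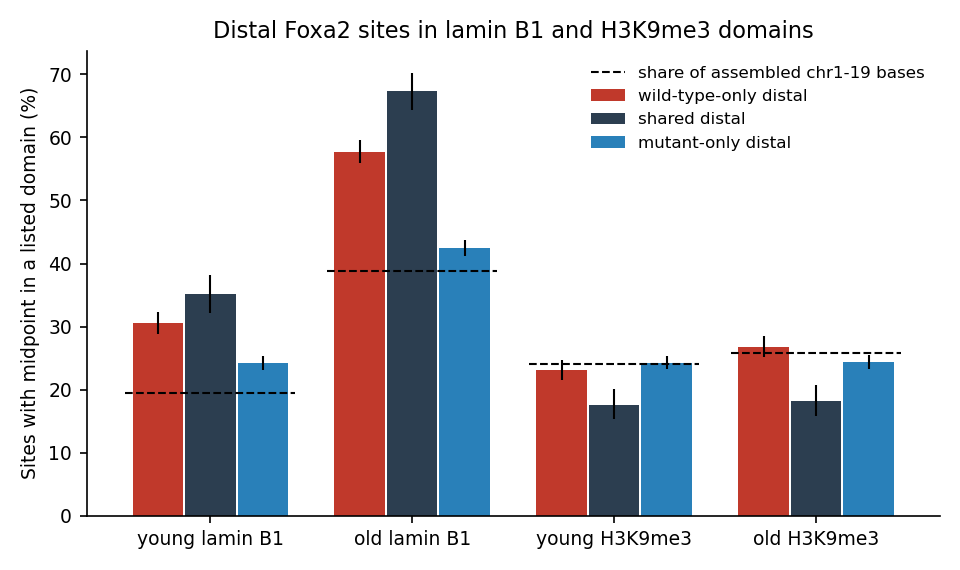
Share of distal Foxa2 sites (%, vertical axis) whose midpoint lies in a domain of each list, for wild-type-only, shared and mutant-only sites; bars are shares over merged lists, error bars Wilson 95% intervals, and dashed lines the share of assembled bases on chromosomes 1 to 19 that the domains cover. For old lamin B1 the order is shared (67.4%), wild-type-only (57.7%) and mutant-only (42.5%), all above the 38.8% of bases.

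The midpoint lay within the body of a protein-coding gene for 49.1% of wild-type-only sites (1377 of 2805), below shared (53.9%, adjusted p = 0.0099) and above mutant-only sites (44.8%, adjusted p = 0.00043, Fisher's exact test over 2 comparisons). Most of these, 1256, were intronic, and 121 (4.31%) were in exons. The first difference did not pass within the first 1488 lines of the list (-3.60 percentage points, exact test, adjusted p = 0.26). By distance, which the selection used, 1465 sites lay 5 to 50 kb from a start site, 1168 at 50 to 500 kb and 172 beyond. The median was 46.0 kb for wild-type-only, 34.6 kb for shared and 69.9 kb for mutant-only sites. The 2 farthest were both nearest to Cdh20, a cadherin, at 2326 and 2140 kb.

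The sites were spread over many genes. They had 2197 nearest protein-coding genes, 10.6% of the 20807 on chromosomes 1 to 19, of which 1767 had 1 site, 320 had 2 and 110 had 3 or more. A mutant-only distal site was nearest to 1031 of these genes and a shared one to 308. For 1059 of the 2197 genes, with 1199 of the 2805 wild-type-only sites, no distal site of either other class was nearest. Sites within 5 kb of a start site were not counted here, so such a gene can still have a mutant site.

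The genes with the most wild-type-only sites were Sult1c1, a sulfotransferase, with 12, Disc1, a scaffold protein, with 9, Atg7, the activating enzyme of autophagosome formation, with 8, and Disp1, which releases hedgehog ligands, with 7. Cdh20, Hmgcs1, the cytosolic synthase of the cholesterol pathway, and Myc, the growth-promoting transcription factor, had 6 each. Adgrl2, Fndc1 and Gfra1, a receptor subunit for glial neurotrophic factors, had 5 each, the first 3 in alphabetical order of the genes with that number. Of these 10 genes, Hmgcs1 had 1 shared site and Adgrl2 had 2, and the others had none. Mutant-only sites were nearest to each of them, from 1 at Sult1c1, Disc1 and Hmgcs1 to 8 at Adgrl2. Over all 2197 genes nearest to a wild-type-only site, 308 had a shared distal site and 1031 a mutant-only one. The core was found at Myc and Gfra1, in 2 sites each, and in none of the sites of the other 8 genes. Over all wild-type-only sites it was in 13.3%.

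A small part of all wild-type-only sites stood in dense runs, among them those at Sult1c1, Disc1 and Atg7. With neighbouring midpoints at most 50 kb apart, 2209 sites (78.8%) stood alone and 96 sites (3.42%) formed 16 runs of 4 or more. The largest held 13 sites over 185 kb, chr8:124972224-125156916, nearest to Disc1, Egln1, the oxygen-sensing prolyl hydroxylase, and Tsnax. All 13 lay in old lamin B1 and old H3K9me3 domains, 7 in young lamin B1 and 2 in young H3K9me3 domains, and 2 held the forkhead core. The next held 12 sites over 148 kb, chr17:53957578-54105527, at Sult1c1, of which none held the core and none lay in a domain of any of the 4 lists. The third held 8 sites over 53.9 kb, chr6:114648924-114702799, all within Atg7, all in lamin B1 domains at both ages, none in H3K9me3 domains and none with the core. Inside these 3 spans lay 1, 1 and 2 mutant-only distal sites and no shared one. The lists hold no read counts, so read depth and DNA copy number over these spans in either genotype could not be checked, and the counts of sites per gene carry the same limit.

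Over the 16 runs, 7 of 96 sites (7.29%, Wilson 95% interval 3.58 to 14.3%) held the core, against 13.5% of the other 2709 (12.2 to 14.8%). Sites in runs lay in old lamin B1 domains more often by count, 80.2% against 56.9%, and neighbours in a run share their domain. Without the runs, the forkhead share of 13.5% was still below the 34.8% of shared sites, a difference of -21.4 percentage points (adjusted p = 4.4e-43, Fisher's exact test).

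**Figure D5:**
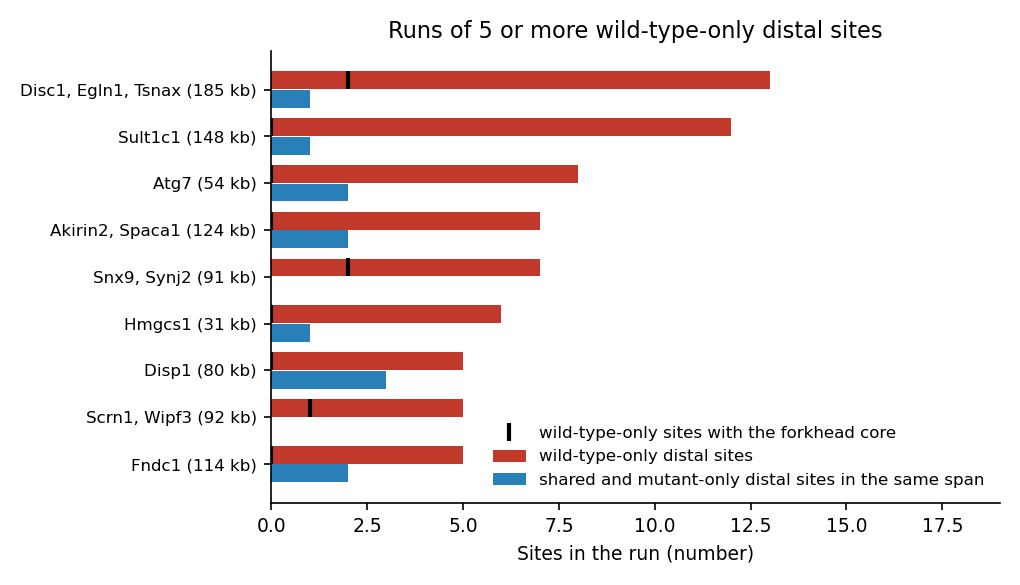
Number of wild-type-only distal sites (red) and of shared and mutant-only distal sites together in the same span (blue) for the 9 runs of 5 or more sites, labelled by nearest genes and span in kb; black ticks mark how many of the red sites hold the forkhead core. The 3 largest runs hold 13, 12 and 8 sites, with 2, 0 and 0 cores.

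Among gene lists of liver functions, transcription factors of hepatocytes stood highest by count. Of 21 such genes, 12 (57.1%) were the nearest start site of at least 1 wild-type-only site, beside 10.6% of all protein-coding genes. A shared site was nearest to 11 of them and a mutant-only site to 11. The share over all genes was not computed for these 2 other classes, so the counts cannot be compared between classes. Sites counted at any distance, up to 480 kb in this list (Tbx3), and the space around a gene was not taken into account. No test was run on the lists. The closest were at Hhex, a homeobox factor (5.83 kb), Nr5a2 (13.4 kb), Onecut2 (14.7 kb upstream) and Cebpa (18.4 kb upstream). Foxa2 itself had 2 wild-type-only sites, at 22.8 and 102 kb, besides 2 shared sites and 1 mutant-only site. Of the 18 sites in this list 2 held the core, 1 at Nr5a2 and 1 at Nfib.

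The lists of metabolic genes had shares between 12.5% and 31.6%, beside the same 10.6% of all protein-coding genes. For glucose production and glycolysis, 6 of 19 genes (31.6%) had 10 sites. They were closest at Tat, the tyrosine aminotransferase (5.88 kb), at Insr, the insulin receptor (15.0 kb upstream), at Slc2a2 (15.9 kb upstream) and at Fbp1 (19.97 kb upstream). Tat and Fbp1 had 2 sites each and no distal site of either other class. A mutant site of any class nevertheless lay 2.08 kb from the closer Tat site, and the nearest to an Fbp1 site was 363 kb away. Nuclear receptors and coregulators had 8 of 30 genes (26.7%), with Esr1, the oestrogen receptor, at 9.72 kb, Ppara at 12.6 kb, Ncor1, a corepressor, at 29.6 kb upstream and Rxra at 36.5 kb upstream. Fatty acid oxidation and ketogenesis had 5 of 19 (26.3%), led by Hadha, of the mitochondrial trifunctional protein (11.1 kb), Acaa2, the thiolase (11.4 kb upstream), and Ppara.

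Lipid synthesis and storage had 7 of 27 genes (25.9%) with 11 sites, 3 of them at Cd36 and 3 at Fabp1, the liver fatty acid binding protein. The closest were at Cd36 (7.38 kb), Cidec, a lipid droplet protein (8.12 kb), Fabp1 (14.6 kb upstream) and Mlxipl, the carbohydrate response factor (18.3 kb). Cidec, Fabp1 and Elovl6, a fatty acid elongase, had no distal site of either other class. The same held for 1059 of all 2197 genes nearest to a wild-type-only site. The nearest mutant site of any class lay 16.9 kb from an Fabp1 site, 40.3 kb from the Cidec site and 135 kb from the Elovl6 site. Apolipoproteins and lipoprotein receptors had 4 of 21 (19.05%), among them Apoa5 (9.62 kb upstream), Lipc, the hepatic lipase (16.3 kb), and Apob (44.8 kb upstream).

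The next lists lay near the 10.6% of all protein-coding genes. Secreted plasma proteins had 3 of 23 genes (13.04%), Ahsg (8.66 kb), Fgb, a fibrinogen chain (10.7 kb), and Alb, albumin (10.8 kb upstream), and each of them also had a mutant-only site. Bile acid synthesis and transport had 2 of 16 (12.5%), Slc10a1 (7.62 kb upstream) and Abcb4, the phospholipid exporter of the bile canaliculus (34.9 kb), and both sites held the core. Drug-metabolising cytochromes had 2 of 16 (12.5%), Cyp2b10 (8.31 kb upstream, with a second site 24.0 kb upstream) and Cyp2c38 (9.04 kb). None of the 14 nuclear lamina genes found in the annotation was nearest to a wild-type-only site, beside 10.6% of all protein-coding genes.

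Marker lists of other liver cells had shares of 10% to 22.2%, each from 1 or 2 genes, beside 10.6% of all protein-coding genes. Kupffer cell and macrophage markers had 2 of 9 (22.2%), Cd163 (19.7 kb) and Timd4 (34.6 kb). Endothelial markers had 2 of 10, Cdh5 (26.5 kb) and Stab2 (94.4 kb), and cholangiocyte markers had 2 of 10, Cftr (23.4 kb, with 2 copies of the core) and Sox9 (200 kb). Stellate cell markers had 1 of 10, Dcn, at 171 kb upstream. The livers were not sorted by cell type, and the lists hold positions only, so the cells in which a site was bound cannot be told apart.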

How the data were processed

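Per the labels and the study's methods, the authors aligned reads to mm10 with BWA, removed duplicates, merged replicates (3 per genotype for Foxa2, 2 per age for lamin B1) and lowered the mutant reads to the wild-type number. They called Foxa2 sites with PeakSeq against input, a mix from young and old wild-type livers, and lamin B1 domains with Epic, a version of SICER. The caller of the H3K9me3 domains is not given in the sources used here, and the ages of the domain lists come from their names. The deposited lists hold positions only, so the depth behind a site is unknown and no replicate, height or stricter threshold could be used. No H3K9me2 list was used here. No sample or group was left unmatched.

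Positions were compared with GRCm38.p6 and GENCODE gene starts; none of the 21374 regions on chromosomes 1 to 19 ran past the end of a chromosome. Classes were set by overlap of 1 bp and a distance of 5 kb from the gene-level start of a protein-coding gene, so an alternative promoter can count as distal. Words were counted on both strands in the central 500 bp, whose flank was centred 5 kb downstream; 3 flanks held unassembled bases. Classes were compared by two-sided Fisher's exact tests and sites with flanks by exact McNemar tests, in scipy 1.17.1, with Benjamini-Hochberg adjustment over 10 words, 8 domain and 2 gene-position comparisons and a threshold of 0.05. Functions were tested on simulated data. Named sites and genes were the extremes of each measure, those next to each threshold, the 10 genes with most sites, the 3 largest runs and up to 4 genes per list (some are not reported here), and sequences were printed for 12 sites with the core. The members and the lists were chosen with earlier results of these data known.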

Additional observations from a re-analysis of the deposited data

How the results depend on the processing

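Of 101 recomputed differences, 87 kept their direction and their side of the threshold. The forkhead difference from shared sites and that from the flanks did so under each alternative run. The difference from mutant-only sites in the forkhead core passed over whole sites (2.67 percentage points) and in the central 200 bp (1.48) and turned to -0.0315 with 1 site per 1 Mb.

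The old H3K9me3 difference from mutant-only sites no longer passed with 1 site per 1 Mb (1.58) or, in alternatives chosen after seeing the data, without runs of 4 or more (1.87), and it turned to -1.49 at 40 to 50% G and C. In that range the young H3K9me3 difference turned to 1.11, and the young lamin B1 differences no longer passed against shared (-4.05) and mutant-only sites (1.99). In the first 1488 lines of the list, also chosen after seeing the data, the differences from shared sites turned for young lamin B1 (1.02) and no longer passed for old lamin B1 (-2.57), young H3K9me3 (0.419), old H3K9me3 (4.63) and gene position (-3.60). That restriction keeps 428 of 2805 sites; beyond this the cause was not tested.

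No paired analysis was possible because replicates were merged before calling. For the same reason leaving out a replicate and a stricter call were not run.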
